A study of Mus musculus with 6 samples.

Results

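The secreted WNT antagonists described here are 10 genes chosen by symbol, Wif1, Sfrp1, Sfrp2, Sfrp4, Sfrp5, Frzb, Dkk1, Dkk2, Sost and Dkk3, out of 52081 genes listed in all 6 libraries. They were measured by single-cell RNA sequencing (10x Genomics 3′ chemistry, version 3) of the callus, the repair tissue that bridges a broken femur, taken from 12-week-old mice 14 days post-fracture (dpf). The 3 control libraries came from Piezo1 f/f mice (labelled wt), which carry the floxed allele without the recombinase. The other 3 came from mice described in the methods as Col2a1CreERT2; Piezo1 f/f (Piezo1 Col2a1) and written in the labels as Col2CreERT; Piezo3-/-. In these mice a tamoxifen-inducible Cre is driven by the Col2a1 promoter, which is active mainly in chondrocytes, so that other callus cells are not its intended target. The methods describe tamoxifen (75 mg/kg on 5 consecutive days from day 5) for the Piezo1 Col2a1 mice, and another passage gives it to both groups.

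Secreted antagonists hold WNT signaling in check outside the cell by different routes. Wif1, the secreted frizzled-related proteins (Sfrp1, Sfrp2, Sfrp4 and Sfrp5) and Frzb (also called Sfrp3) bind WNT ligands and keep them from Frizzled receptors, whereas Dkk1, Dkk2 and sclerostin, the product of Sost, bind the LRP5 and LRP6 co-receptors. Dkk3 is a divergent Dickkopf that does not share this LRP binding. In bone, WNT signaling promotes osteoblast formation, sclerostin is made by osteocytes, the cells embedded in mineralized matrix, and Frzb is a known product of cartilage.

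Each antagonist was read as counts per 1000000 (CPM), that is, unique molecular identifiers (UMIs) of the gene per 1000000 UMIs of all genes in a cell class of 1 library. Levels are compared between cells within a gene, and an order of levels across genes is approximate, since capture differs between genes. Stromal cells were clustered with all 10 antagonists left out of the variable genes that defined the clusters and of the marker lists that named them. A cluster was given a name ending in -like where at least 3 listed markers of that cell type were raised in it. It was left unnamed if another listed type had more markers among its leading genes, or if types tied. Antagonists were not kept out of the leading genes, the 10 raised most in a cluster. Sfrp5 was among those of chondrocyte-like 1, and Sfrp1 and Sfrp2 among those of the progenitor fibroblast-like cluster. Subtype levels are means over libraries with at least 10 cells in that subtype, and since the subtypes were built from the same cells, differences between them are described without a test. By mean level, the antagonists fell into different sites. Wif1, Dkk1 and Sost were highest in the Dmp1- and Phex-rich osteoblast-like cluster, and Sfrp5 and Frzb in cartilage. Sfrp1, Sfrp2 and Sfrp4 were highest in progenitor fibroblast-like cells, Dkk3 in periosteal-like cells, and Dkk2 in endothelial-like cells. Within the stroma, the gap to the next cluster was larger than the SD only for Dkk1 and Sfrp2. Some of the highest clusters, such as those of Wif1 and Dkk3, changed with the clustering. None of the 10 passed the test between genotype labels in any cell class tested.

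Together, 41652 cells were kept of 46944 barcodes, with 57626530 to 103784364 UMIs per library, and 1757 to 4444 cells per library were stromal-like. Stromal-like cells were 20.9% to 79.8% of a library, and their 8 neutrophil markers summed to between 87.0 and 1578 CPM. Piezo1 in stromal-like cells was 60.2, 42.8 and 55.0 CPM in the controls. It was 99.3, 42.5 and 43.9 in the other 3 libraries, so the groups overlapped. The 3′ tags may lie outside the deleted part of the gene, so this value does not check the label, and the second group is called knockout-labelled throughout. Although the mice are described as male, knockout-labelled library 3 held 578 CPM of Xist against at most 0.170 in the other 5, and 0.0324 CPM of 4 Y-linked genes against 108 or more. Libraries shared 4 to 36 barcodes per pair, at most 0.383% of the smaller library. Few cells were left for some values, since knockout-labelled library 2 had under 10 cells of chondrocyte-like 1, knockout-labelled library 1 under 10 of osteoblast-like 2 and control library 2 under 10 of the hypertrophic chondrocyte-like (HTC-like) cluster.

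**Figure D1:**
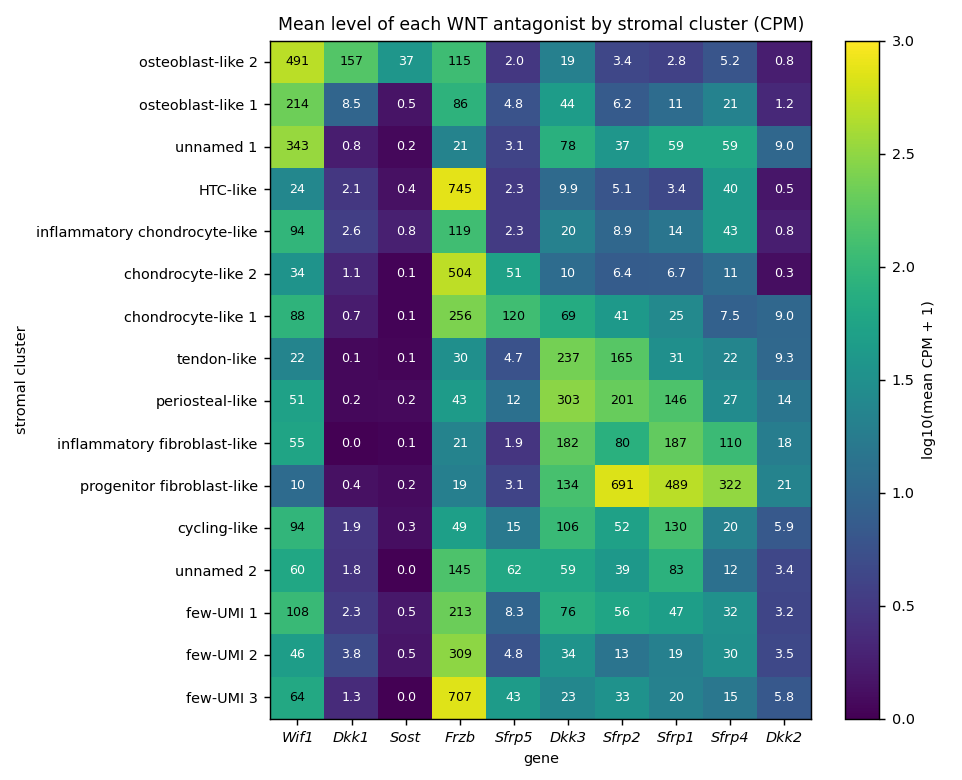
Mean level of each antagonist (columns) in each of 16 stromal clusters (rows), as CPM averaged over the libraries with at least 10 cells of that cluster, with colour on a log10 scale. The osteoblast-like 2 row is highest for Wif1, Dkk1 and Sost, the progenitor fibroblast-like row for Sfrp1, Sfrp2, Sfrp4 and Dkk2, and the cartilage rows for Frzb and Sfrp5.

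Wif1 (chr10:121033960-121100650, GRCm38, plus strand) encodes WNT inhibitory factor 1, which binds WNT ligands directly. Its highest mean was in osteoblast-like 2, a cluster of 362 cells led by the osteocyte genes Dmp1 and Phex and the osteoblast genes Ifitm5 and Bglap, at 491 ± 332 CPM (SD, n = 5). The controls read 397, 1069 and 301 CPM there, and knockout-labelled libraries 2 and 3 read 249 and 436. Control library 2 stood above the others, and the groups overlapped. Close behind came a cluster left unnamed, unnamed 1, which was led by Mmp9, Cxcl12, Gdpd2, Lifr and Mmp13 and was named osteoprogenitor-like at a coarser and at a finer clustering resolution. In the main clustering and at both of these resolutions, the listed markers raised most on average in it were those of marrow stromal cells. Of that list, Lepr (95.8 CPM), Adipoq (41.9), Cxcl12 (1053), Kitl, Ebf3 and Lpl were highest in unnamed 1, while Gas6 and Foxc1 were higher elsewhere. Wif1 was 343 ± 201 CPM in unnamed 1 (n = 6), with 283, 701 and 383 in the controls and 92.2, 337 and 264 in the knockout-labelled libraries. Osteoblast-like 2 exceeded unnamed 1 in only 3 of 5 shared libraries, so this pair did not differ beyond its spread. Osteoblast-like 1, led by Bglap and Ifitm5, held 214 ± 78.5 CPM (n = 6) and was lower than unnamed 1 in 5 of 6 libraries, again within the spread. By amount, unnamed 1 held 22.7% of the stromal Wif1 UMIs on average, osteoblast-like 1 held 19.1% and chondrocyte-like 1 held 15.7%, while the smaller osteoblast-like 2 held 9.02%.

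Sfrp1 (chr8:23411502-23449632, plus strand), Sfrp2 (chr3:83766321-83774316, plus strand) and Sfrp4 (chr13:19623104-19632994, plus strand) carry a Frizzled-like domain that captures WNT ligands. All 3 had their highest mean in the progenitor fibroblast-like cluster, 610 cells led by Clec3b, Dpt and Pi16, in which Pi16 reached 467 CPM against 45.0 in tendon-like cells and at most 15.8 in the other clusters. Sfrp2 was the steadiest, at 691 ± 172 CPM (n = 6). It read 995, 616 and 496 in the controls and 762, 669 and 607 in the knockout-labelled libraries, and the groups overlapped. Periosteal-like cells, led by Ptn and Aspn, came next with 201 ± 74.5 CPM, and the progenitor fibroblast-like level was higher in 6 of 6 libraries by more than the spread. Of the listed periosteal markers, only Aspn and Gli1 were highest in periosteal-like cells. Penk, Ptn, Ogn, Postn, Cilp, Acta2 and Prrx1 were higher in other clusters, Ptn for example at 1068 CPM in progenitor fibroblast-like cells against 678. Tendon-like cells followed with 165 ± 141 (n = 5), within the spread of the periosteal-like level. Because periosteal-like cells were more numerous (2290 cells), the share of stromal Sfrp2 UMIs that they held, 35.2%, was close to the 36.5% held by progenitor fibroblast-like cells.

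Sfrp1 averaged 489 ± 408 CPM in progenitor fibroblast-like cells (n = 6). Knockout-labelled library 1 alone read 1314, whereas the other libraries lay between 237 and 405. Inflammatory fibroblast-like cells, led by Mmp3, Saa3 and Cxcl5, held 187 ± 157 and were lower in 6 of 6 libraries, though the gap between the means was smaller than the SD. Periosteal-like cells held 146 ± 111. Control library 3 gave 749 of the 1113 inflammatory fibroblast-like cells, and clustering without integration gave no cluster of that name. Saa3 and Cxcl5 were highest in inflammatory fibroblast-like cells, whereas Mmp3 was higher in inflammatory chondrocyte-like cells (1471 against 739 CPM). The excess of knockout-labelled library 1 was not limited to progenitor fibroblast-like cells: with few-UMI clusters left out, Sfrp1 was highest in this library in 7 of 8 subtypes that had all 6 libraries and a mean of at least 10 CPM (9 of 10 with them). In cycling-like cells it read 565 CPM there against 14.5 to 122 in the others.

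Sfrp4 averaged 322 ± 237 CPM in progenitor fibroblast-like cells (n = 6), with 491, 352 and 50.8 in the controls and 184, 689 and 165 in the knockout-labelled libraries. Control library 3 was lowest and knockout-labelled library 2 highest, so that each group spanned much of the range. Inflammatory fibroblast-like cells held 110 ± 133, lower in 6 of 6 libraries but within the SD. Unnamed 1 came next with 58.8 ± 47.3. By the same rule, Sfrp4 was highest in knockout-labelled library 2 in 6 of 9 subtypes, or 6 of 11 with the few-UMI clusters.

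Sfrp5 (chr19:42197971-42202252, minus strand) and Frzb (chr2:80411970-80447625, minus strand) were the cartilage members of the WNT-binding group, with different peaks. Sfrp5 was highest in chondrocyte-like 1, a cluster of 1823 cells led by Ucma, Col2a1 and Col9a1, at 120 ± 66.9 CPM (n = 5). The controls read 143, 37.5 and 66.5 and knockout-labelled libraries 1 and 3 read 202 and 151. The second library of that group had too few cells to be read, so the order of the groups is not read as a difference. A cluster with leading genes of both osteoblasts and neutrophils, unnamed 2, held 61.7 ± 81.9 (n = 6), within the spread. Chondrocyte-like 2 held 50.8 ± 39.1 (n = 6), including a value of 0 in knockout-labelled library 2. Ucma, Col2a1 and Col9a1 were all higher in chondrocyte-like 2 than in chondrocyte-like 1 (Ucma at 947 against 735 CPM), so these leading genes do not single out chondrocyte-like 1. Chondrocyte-like 1 held 62.4% of the stromal Sfrp5 UMIs and chondrocyte-like 2 held 22.2%.

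Frzb had its highest mean in HTC-like cells, in which Col10a1, the collagen of hypertrophic cartilage, averaged 23490 CPM. Its mean of 745 ± 553 CPM (n = 5) covered high and low libraries, with 1231 and 165 in controls 1 and 3 and 1037, 124 and 1167 in the knockout-labelled libraries. Both groups held high and low libraries. Chondrocyte-like 2 was steadier at 504 ± 208 (n = 6), with 723, 387 and 315 in the controls and 728, 264 and 609 in the knockout-labelled libraries. HTC-like cells were above chondrocyte-like 2 in 3 of 5 shared libraries, and the gap between the means, 240.2 CPM, was smaller than the SD, so this pair did not differ beyond its spread. Chondrocyte-like 1, which led for Sfrp5, held 256 ± 77.3. Frzb was also read in cells that should lack it: neutrophil-like cells held 79.5, 3.87 and 2.58 CPM in the controls and 54.9, 2.51 and 54.3 in the knockout-labelled libraries. Col10a1 in neutrophil-like cells followed the same order of high and low libraries, with 1886, 110 and 36.8 in the controls and 1176, 8.16 and 1087 in the knockout-labelled libraries. The 3 libraries high for both were those with high HTC-like Frzb, and the part of free RNA in the HTC-like difference between libraries was not tested. Clusters of cells with few UMIs, which were led by Col10a1 and other cartilage genes, also read high for Frzb, at 707 ± 362 CPM in few-UMI 3 (n = 5).

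**Figure D2:**
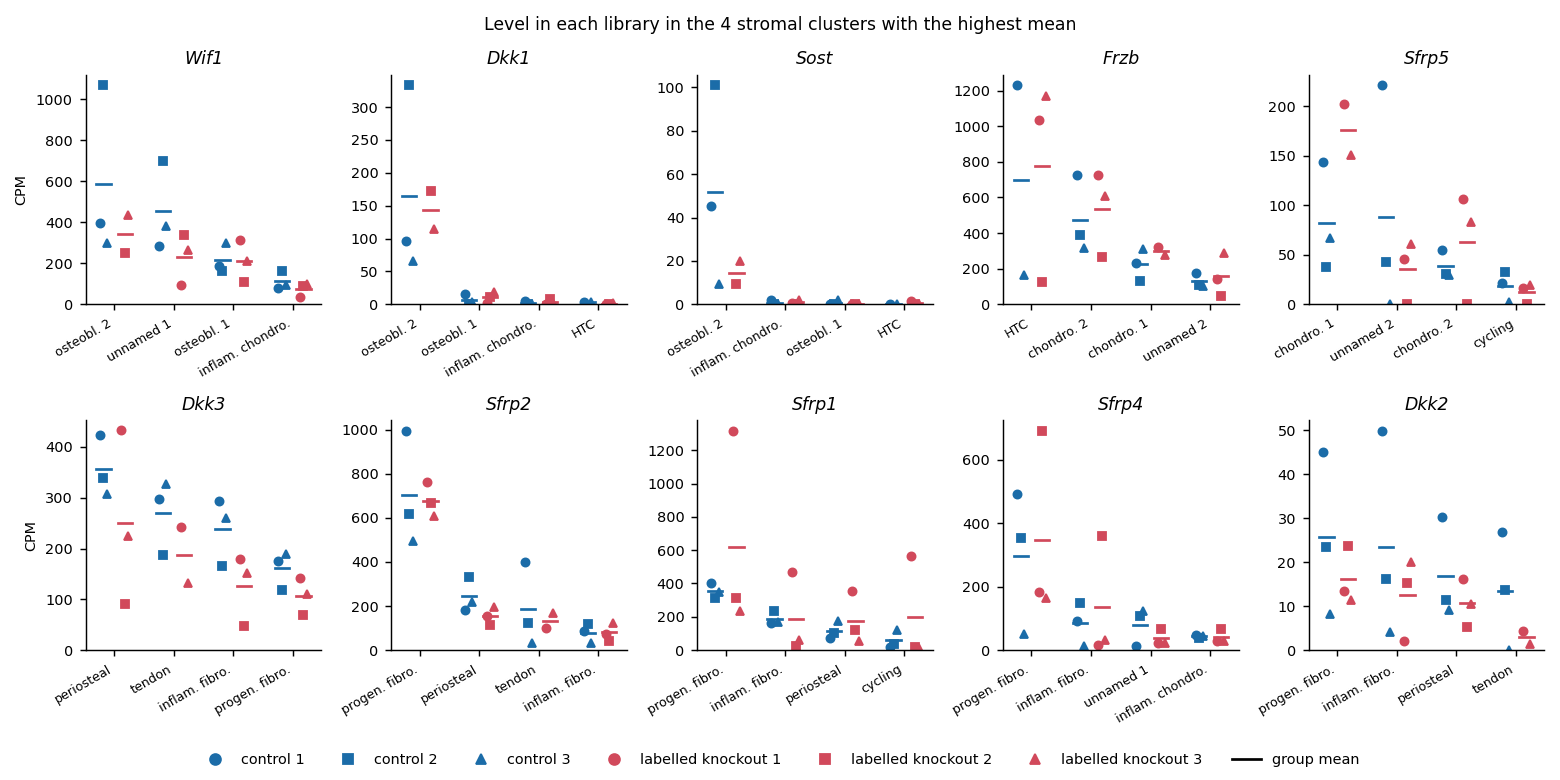
Level of each antagonist in each library, as CPM on linear axes that differ between panels, in the 4 named or unnamed stromal clusters with the highest mean, clusters of cells with few UMIs left out. Points are libraries with at least 10 cells, blue for control and red for knockout-labelled, and lines are means. Sfrp1 in knockout-labelled library 1 stands at 1314 in progenitor fibroblast-like cells while the other 5 libraries lie between 237 and 405.

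Among the LRP-binding antagonists, Dkk1 and Sost were the most restricted. Dkk1 (chr19:30545863-30549665, minus strand), an inhibitor that is itself known as a WNT target gene, reached 157 ± 106 CPM in osteoblast-like 2 (n = 5). The controls read 96.7, 333 and 65.9 and knockout-labelled libraries 2 and 3 read 173 and 114. These values rest on 109, 66, 14, 462 and 121 UMIs of Dkk1. The next cluster, osteoblast-like 1, held 8.48 ± 7.82 (n = 6) and was lower in 5 of 5 shared libraries by more than the spread. Osteoblast-like 2 therefore stood apart from every other stromal cluster for Dkk1, and its 362 cells held 54.3% of the stromal Dkk1 UMIs on average. The promoters of 7 antagonists (Wif1, Sfrp2, Sfrp5, Frzb, Dkk1, Dkk2 and Sost) were in the RefSeq table of the GRCm38 build, from 250 bases before to 50 after the start. Since the WNT effectors TCF and LEF bind sequences with this core, the letters CTTTGAA were sought on both strands, and of the 7 only the Dkk1 promoter held them, 117 bases before the RefSeq start (chr19:30549597-30549623, minus strand). RefSeq starts the gene at position 30549496, 169 bases inside the gene as GENCODE gives it above, so that the stretch lies upstream of the RefSeq start and within the GENCODE gene. The stretch is shown with the matching letters in capitals.
Dkk1: cctcccaaagCTTTGAAatcccatccc
Of 32851 promoters in the table, 5.14% held the same letters, and a match describes the sequence only.

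Sost (chr11:101962458-101967015, minus strand), the sclerostin gene, was read in the stroma mainly in the same cluster. It averaged 37.0 ± 38.6 CPM in osteoblast-like 2 (n = 5), and its mean did not exceed 0.813 in the other 15 clusters compared. The controls read 45.2, 101 and 9.42 and knockout-labelled libraries 2 and 3 read 9.36 and 19.8, from 51, 20, 2, 25 and 21 UMIs. The 8 osteoblast-like 2 cells of knockout-labelled library 1 were too few to be counted among these values, but they held 55 Sost UMIs, or 263 CPM. A handful of cells thus set the Sost level of a library, and the order of the groups in osteoblast-like 2 depends on whether this library is read. Of all osteoblast-like 2 cells, 8.84% had a Sost UMI, against 51.4% for Dkk1. Other osteocyte markers were also high in this cluster. Dmp1 averaged 2927, Phex 1665, Ptprz1 1137, Irx5 625, Pdpn 243 and Mepe 113 CPM, each the highest of the stromal clusters. Fgf23 was at 0 in the 5 libraries read, but it did not exceed 0.368 CPM in any stromal cluster. The cluster was named osteoblast-like by its markers in the main clustering and osteocyte-like when clustered more finely or without integration.

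Dkk2 (chr3:132085292-132180304, plus strand) differed from the other 9 in that most of its UMIs lay in endothelial-like cells in 4 of 6 libraries. Endothelial-like cells held 49.4 ± 9.78 CPM (n = 6), against 6.68 ± 5.08 in stromal-like cells, 3.85 ± 4.77 in pericyte-like cells and 0.313 in neutrophil-like cells. The endothelial-like level was 57.7, 43.9 and 64.0 in the controls and 48.9, 43.7 and 37.9 in the knockout-labelled libraries, all above every stromal-like value. Within the stroma, progenitor fibroblast-like cells (20.9 ± 13.4), inflammatory fibroblast-like cells (17.9 ± 17.1) and periosteal-like cells (13.8 ± 8.74) did not differ beyond their spread. Control library 1 was the highest in all 3. Its 49.7 CPM in inflammatory fibroblast-like and 45.0 in progenitor fibroblast-like cells fell within the range of the endothelial-like values. Both were below the 57.7 of its own endothelial-like cells. Stromal-like cells held 41.2% of the Dkk2 UMIs of a library on average (14.6% to 76.6%), whereas for the other 9 antagonists the mean share was 88.4% to 97.7%.

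**Figure D3:**
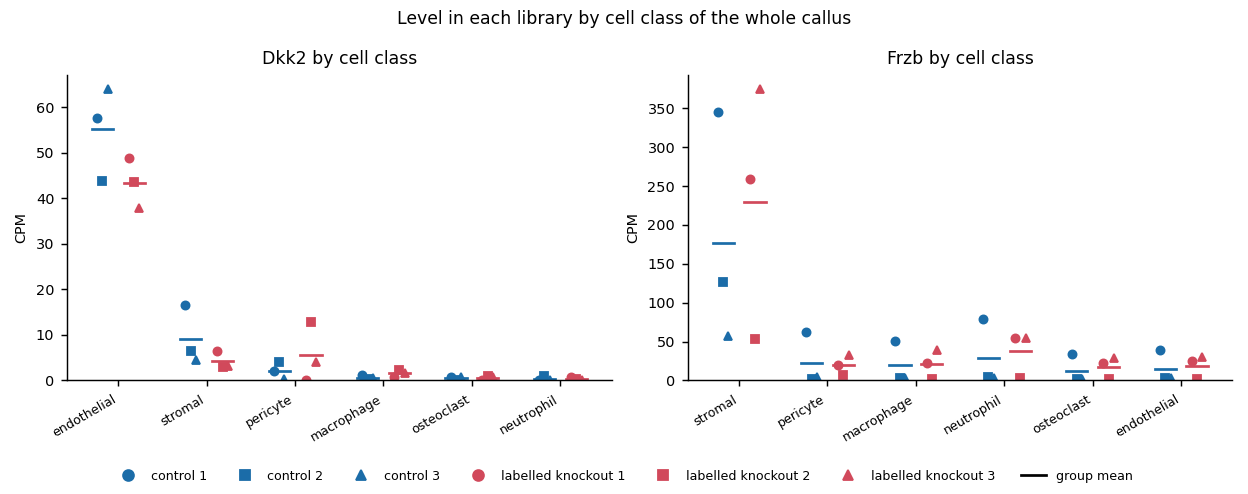
Level of Dkk2 (left) and Frzb (right) in each library by cell class of the whole callus, as CPM on linear axes, with lines at the group means. The 6 endothelial-like values of Dkk2 lie between 37.9 and 64.0, above every stromal-like value, and Frzb in the other 5 classes plotted is highest in control library 1.

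Dkk3 (chr7:112116017-112159057, minus strand), the divergent Dickkopf, had its highest mean in periosteal-like cells, at 303 ± 130 CPM (n = 6). The controls read 424, 338 and 308 and the knockout-labelled libraries read 433, 90.7 and 224. Tendon-like cells (237 ± 79.0, n = 5), inflammatory fibroblast-like cells (182 ± 87.0) and progenitor fibroblast-like cells (134 ± 44.5) followed, each within the spread of its neighbour. Dkk3 was thus read along the periosteal, tendon and fibroblast clusters in small steps, with 42.7% of its stromal UMIs in periosteal-like cells. Between the ends of this order, progenitor fibroblast-like cells were lower than periosteal-like cells in every library. Knockout-labelled library 2 was the lowest library in 8 of the 9 subtypes with all 6 libraries and a mean of at least 10 CPM, few-UMI clusters left out, and in 10 of 11 with them.

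Shares of cells in which an antagonist was detected were read for the 9 antagonists with their highest level in the stroma. Because depth differs between classes, each cell was thinned to 500 UMIs, which every kept cell reached, and shares at full depth are given beside it. Shares pool the cells of all libraries. Knockout-labelled library 3 gave 417 of 612 HTC-like cells, and knockout-labelled library 2 gave 180 of 362 osteoblast-like 2 cells. In neutrophil-like cells (median 2435 UMIs), taken as the background from free RNA, the thinned share was 0.935% for Frzb (5.45% at full depth), 0.264% for Wif1 (1.67%) and at most 0.183% for the other 8. Wif1 was detected in 17.7% of thinned osteoblast-like 2 cells (77.9% at full depth, median 13170 UMIs) and in 17.3% of unnamed 1 cells (65.2%, median 8666 UMIs). Frzb was detected in 40.0% of thinned HTC-like cells (96.2%, median 19790 UMIs) and 22.3% of chondrocyte-like 2 cells (96.6%, median 26460 UMIs). All 4 shares were above the background of the same gene, although share and background were not matched by library. In progenitor fibroblast-like cells (median 13500 UMIs) the thinned share was 19.8% for Sfrp2 (57.7%), 15.6% for Sfrp1 (68.8%) and 11.3% for Sfrp4 (47.9%). Dkk3 was detected in 14.5% of thinned periosteal-like cells (79.1%, median 11920 UMIs), Dkk1 in 6.63% of osteoblast-like 2 cells (51.4%) and Sfrp5 in 4.99% of chondrocyte-like 1 cells (33.5%, median 16480 UMIs). For Sost the thinned share in osteoblast-like 2 was 0.276% (95% Wilson interval 0.0488% to 1.55%, which covers counting error only), which at this depth could not be set apart from the neutrophil-like value, 0% with an upper bound of 0.0781%.

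Several antagonists shared their pattern across the 94 combinations of library and stromal cluster with at least 10 cells. Pearson correlations of log2(CPM + 10) are given as descriptions, since the combinations share libraries, depth and clusters. Among the antagonists, Dkk1 and Sost had the highest correlation (r = 0.865). The mean of Sost did not exceed 0.813 CPM in the other stromal clusters compared, so this value mainly restates their shared peak in osteoblast-like 2. Next came Sfrp1 and Sfrp2 (r = 0.778) and Sfrp2 and Dkk3 (r = 0.756), whereas Frzb and Dkk3 ran in opposite directions (r = -0.436). Among the genes nearest to Wif1 were Cdo1 (r = 0.774) and Sp7 (r = 0.737), which encodes a transcription factor of the osteoblast lineage. Dkk1 was nearest to Ccdc194 and Gsg1 (both r = 0.942) and Frzb to Pcolce2 (r = 0.893) and Susd5 (r = 0.883). Sfrp2 followed Col14a1 (r = 0.932), a fibril-associated collagen, and Dkk3 followed Thbs2 (r = 0.902) and Aspn (r = 0.882), both genes of extracellular matrix proteins. Sfrp1 was nearest to Ptgfr (r = 0.870), a prostaglandin receptor, Sfrp4 to Ifi204 (r = 0.714) and Sfrp5 to Cmtm5 (r = 0.737). Dkk2 and Sost were below the level of 50 CPM in a stromal subtype that was set for this search.

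The ligands and receptors on which these antagonists act were read from a list of 60 other WNT pathway genes. Of 19 ligands, 3 reached a mean of 50 CPM in a stromal subtype, namely Wnt4, Wnt5a and Wnt5b. Wnt4 was highest in unnamed 1 at 165 CPM, the cluster that was second for Wif1. Of 18 receptors and co-receptors, 9 reached this level, with Ryk (280) and Lrp6 (235) the highest. The R-spondin axis, which amplifies WNT signaling, had 3 of 9 at this level, led by Rspo3 at 162 CPM in unnamed 1. None of the 8 other antagonists reached it, the highest being Trabd2b at 43.9 in tendon-like cells, and of 6 target genes only Tcf7 did (101 in osteoblast-like 1), with Axin2 at most 11.9. Counts of 3′ tags do not scale with gene length, but these orders across genes remain approximate.

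The comparison of genotype labels asked whether the antagonists differed in cells of the knockout-labelled mice. UMI counts summed per library and class entered the quasi-likelihood test of edgeR, adjusted over all genes tested by the Benjamini-Hochberg method. In stromal-like cells 0% of 18296 genes passed an adjusted p of 0.05 (295 had an unadjusted p under 0.05, and DESeq2 called 0), so none of the 10 antagonists did. Without knockout-labelled library 3, the library with Xist, the count was again 0, of 18957 genes. Dkk1 was 3.83, 3.49 and 0.680 CPM in the controls and 0.693, 17.0 and 5.26 in the knockout-labelled libraries, a log2 difference of 1.71 (SE 1.07). Dkk2 was 16.5, 6.55 and 4.53 in the controls and 6.53, 2.88 and 3.08 in the knockout-labelled libraries, a log2 difference of -1.06 (SE 0.50). In both genes the groups overlapped. The other 8 antagonists lay between -0.90 (Dkk3, SE 0.66) and 0.68 (Sfrp5, SE 1.34), with Sfrp1 moving from 0.57 to -1.73 without knockout-labelled library 1, and all 10 had an adjusted p of 0.9996 in the edgeR fit. Of the 10, 6 were higher and 4 lower in knockout-labelled libraries, with a median log2 difference of 0.36 against 0.0047 over all genes tested. In sums over a class, a change in the mix of subtypes and a change per cell cannot be told apart. Among the marker lists of other cells, only the macrophage sum separated the groups. In the stromal-like cells of every library 8 of 8 macrophage markers were found. Their sum was 46.2 to 77.3 CPM in the controls against 128 to 269 CPM in the knockout-labelled libraries, without overlap. The sums of neutrophil, erythroid, muscle and endothelial markers overlapped between the groups, and the part of any of them in the differences was not tested.

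The cartilage clusters, where the Cre is meant to act, were joined and are called chondrocyte-like and HTC-like cells. They include the inflammatory chondrocyte-like cluster, of whose 554 cells control library 3 gave 288. Knockout-labelled library 2 gave 56 cells of that cluster but only 5 of chondrocyte-like 1, where Dkk2 was highest among the joined clusters (9.04 CPM). In the joined clusters edgeR called 0% of 14659 genes (243 at an unadjusted p under 0.05, and 1 gene by DESeq2, not an antagonist). The 9 antagonists tested all had an adjusted p of 0.9998 in edgeR. The largest differences were in Dkk2 (-1.98, SE 0.70), Sfrp2 (-1.01, SE 0.76) and Sfrp4 (0.81, SE 0.75), whereas Frzb, the main antagonist of these cells, differed by 0.42 (SE 0.63). Sost had too few counts to be tested. Piezo1 in these cells was 67.2, 42.6 and 49.7 CPM in the controls and 133, 56.5 and 47.3 in the knockout-labelled libraries. The 45 other WNT pathway genes tested in stromal-like cells and the 37 tested in chondrocyte-like and HTC-like cells gave 0 calls, with 3 and 6 at an unadjusted p under 0.05.

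Each of 16 stromal subtypes was tested in the same way. In 15 of them edgeR called 0% of genes, and in chondrocyte-like 1 it called 0.00761% of 13142 genes, a single gene that is not an antagonist. Of 94 tests of antagonists, 48 gave a higher value in knockout-labelled libraries. An unadjusted p under 0.05 was found in 9 (9.57%), against 2.69% of 153714 tests over all genes, and members and subtypes share libraries. Most of the 9 lay in chondrocyte-like 1, tendon-like cells and osteoblast-like 2, fits in which a knockout-labelled library was left out for too few cells. The 2 shares are therefore given as a description. The lowest adjusted p was 0.677 in edgeR, for Sost in osteoblast-like 2 (log2 difference -1.72, SE 0.64), a fit that left out knockout-labelled library 1 with its 8 cells and 55 Sost UMIs. Without knockout-labelled library 3 as well, which left 1 library in that group, Sost was at -2.20 (adjusted p = 0.0444 in edgeR), in a fit that called 1.21% of 7986 genes. The lowest unadjusted p were those of Sfrp4 in tendon-like cells and in osteoblast-like 1 and of Dkk2 in tendon-like cells. In tendon-like cells Sfrp4 read 92.5, 14.1 and 0 CPM in the controls and 0 and 3.65 in knockout-labelled libraries 1 and 3, a log2 difference of -4.09 (SE 1.08, adjusted p = 0.728 in edgeR). Dkk2 read 26.9, 13.6 and 0 there in the controls and 4.39 and 1.46 in the same 2 libraries, a log2 difference of -2.96 (SE 0.82, adjusted p = 0.739 in edgeR). The groups overlapped for both, and control library 3 and knockout-labelled library 1 had only 13 and 15 tendon-like cells. In osteoblast-like 1 Sfrp4 read 29.5, 33.5 and 24.2 CPM in the controls and 10.8, 10.1 and 15.6 in the knockout-labelled libraries, a log2 difference of -1.14 (SE 0.28, adjusted p = 0.968 in edgeR). The groups did not overlap there, as was so in this direction for 4.56% of 13717 genes and for 1 of the 9 antagonists with a mean of at least 1 CPM. The macrophage markers in osteoblast-like 1 summed to 30.3 to 63.3 CPM in the controls and 95.8 to 179 in the knockout-labelled libraries, and their part in the difference was not tested. In the subtype where each was highest, Wif1 differed by -0.67 (SE 0.54), Dkk1 by -0.01 (SE 0.59), Frzb by 0.21 (SE 0.83), Sfrp5 by 1.17 (SE 0.46) and Dkk3 by -0.50 (SE 0.47). In progenitor fibroblast-like cells Sfrp2 differed by -0.02 (SE 0.33), Sfrp1 by 0.79 (SE 0.57), Sfrp4 by 0.27 (SE 0.75) and Dkk2 by -0.77 (SE 0.52). In endothelial-like cells, the site with the highest Dkk2, edgeR called 0% of 13908 genes, and Dkk2 differed by -0.30 (SE 0.20, adjusted p = 0.787). Standard errors of 0.20 to 0.83 on the log2 scale show how wide these differences remained with 3 or fewer libraries a group.

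**Figure D4:**
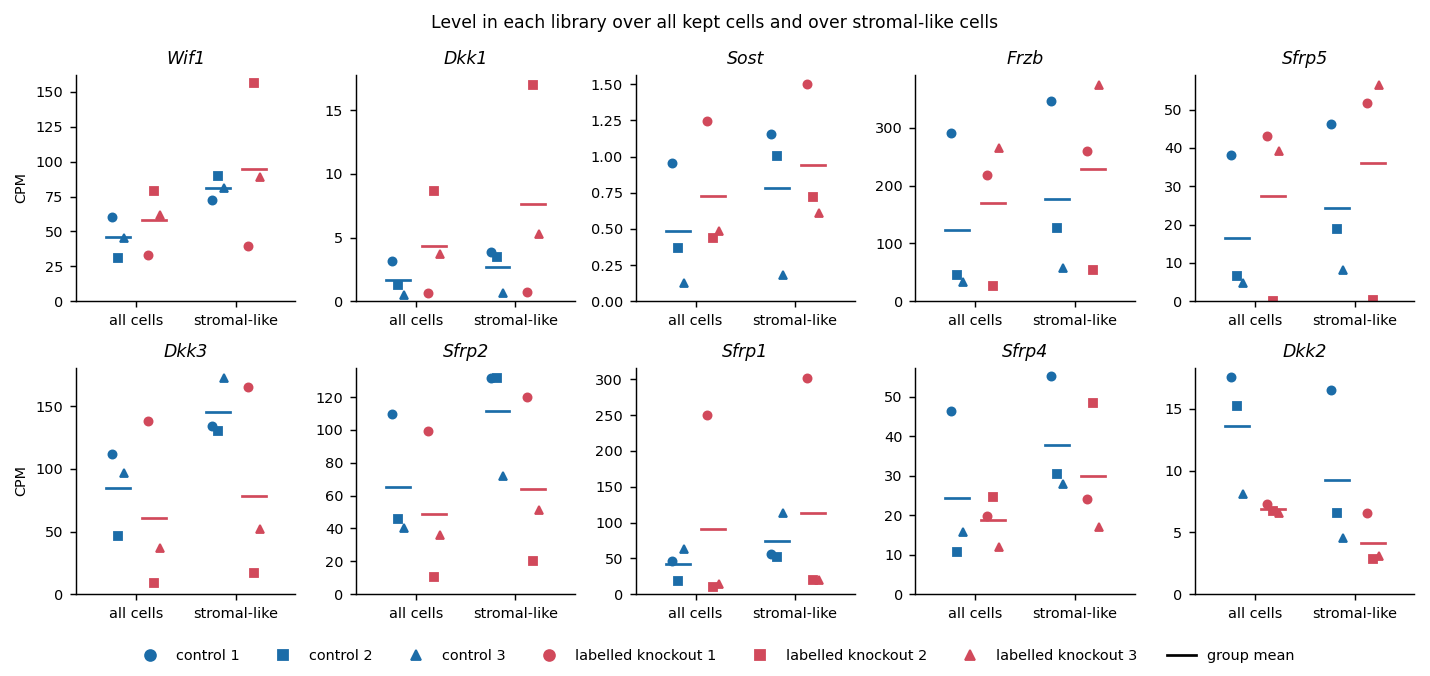
Level of each antagonist per library over all kept cells and over stromal-like cells, as CPM on linear axes that differ between panels, with lines at the group means. The groups overlap in every panel except for Dkk2 over all cells, where the 3 controls lie between 8.07 and 17.6 and the 3 knockout-labelled libraries between 6.59 and 7.33.

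Over all kept cells of a library, the groups did not overlap for 1 antagonist. Dkk2 was 17.6, 15.2 and 8.07 CPM in the controls and 7.33, 6.74 and 6.59 in the knockout-labelled libraries, with a two-sided exact permutation p of 0.1, the smallest that 3 libraries against 3 can give. Every knockout-labelled library was below every control for 3.31% of 15109 genes, so 1 of 10 antagonists in this direction is to be read against that share. Endothelial-like cells, the site of most Dkk2 UMIs in 4 of 6 libraries, were 9.68%, 23.7% and 11.9% of the cells in the controls and 4.47%, 14.4% and 12.5% in the knockout-labelled libraries. In a sum over all cells, fewer cells of a type and less RNA per cell cannot be told apart. Within endothelial-like cells Dkk2 was 57.7, 43.9 and 64.0 CPM in the controls and 48.9, 43.7 and 37.9 in the knockout-labelled libraries, so the groups overlapped. In control library 1, the highest over all cells, 76.6% of the Dkk2 UMIs lay in stromal-like cells. The part of each in the callus-wide difference was not tested. Libraries of the same replicate number share the version of Cell Ranger and the gene list, and the direction within each number is fixed by the lack of overlap over all cells. For the other 9 antagonists the groups overlapped, and exact permutation p ranged from 0.4 to 1.0. Sfrp1, for example, read 46.3, 18.4 and 62.5 in the controls and 250.5, 10.4 and 13.7 in the knockout-labelled libraries, and without the first of these the difference of the means turned from 49.1 to -30.4 CPM.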

How the data were processed

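Callus cells of 6 libraries, taken here to come from separate mice, were profiled by 10x Genomics 3′ scRNA-seq, and p-values measure the spread between libraries. The methods name 3 mice per group, while another passage gives a different number. The authors deposited raw UMI counts per gene and barcode, made on GRCm38 with Cell Ranger 6.1.1 for the first replicate and 6.1.2 for the others. Replicate 3 of both groups used another gene list, and only the 52081 genes listed in all libraries were used. The authors' own Seurat annotation was not used here.

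Barcodes were kept from 500 UMIs and 200 genes upward unless over 20% of their UMIs were mitochondrial. As likely doublets, 3046 cells with the highest Scrublet scores were removed, a number preset in each library from its cell count (0.8% per 1000 cells). With scanpy 1.11.5 and Seurat 5.3.0 (Python 3.11.15, R 4.3.3), 2000 variable genes and 30 principal components were integrated by RPCA and clustered with leidenalg 0.10.2 at a resolution of 0.3 (all cells) and 0.8 (stromal-like cells). The 10 antagonists and the WNT pathway list were left out of these genes. Clusters were named from listed markers (at least 3 found in 25% of cells and raised 2-fold). They were left unnamed where another listed type had more markers among the leading genes or, for stromal clusters, where types tied. Naming thresholds and the resolution for all cells were set after the clusters had been seen, without regard to genotype label. Clusters whose median UMI count was under 1/3 of the median over all stromal-like cells, pooled over libraries of different depth, are called few-UMI.

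Summed counts, filtered by filterByExpr and scaled by TMM, were compared by the two-sided quasi-likelihood test in edgeR 4.0.16 at a threshold of 0.05, with DESeq2 1.42.0 as an alternative. Callus-wide levels were compared by exact permutation over all 20 assignments. The scripts were tested on simulated data. There the edgeR fit called 0% of 2-fold and 23.9% of 4-fold changes in stromal-like cells. In chondrocyte-like and HTC-like cells it called 5.97% and 67.2%, so most 2-fold changes would be missed. All 10 antagonists are named, with the highest WNT pathway gene of each role and, for each antagonist of at least 50 CPM in a stromal subtype, genes among the 3 nearest in pattern. The members and lists were chosen with earlier results of these data known. Gene positions are from GENCODE M21, and promoter sequences are from RefSeq.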

Additional observations from a re-analysis of the deposited data

How the results depend on the processing

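No antagonist passed the adjusted test between genotype labels in the fits as reported, and the direction of several differences turned when 1 library was left out. With each library left out in turn, the log2 difference in stromal-like cells ranged from -0.22 to 0.77 for Wif1, -1.73 to 1.07 for Sfrp1, -0.82 to 0.11 for Sfrp4, -0.16 to 1.38 for Frzb and -0.11 to 0.73 for Sost. In chondrocyte-like and HTC-like cells it ranged from -0.85 to 0.60 for Sfrp1 and -0.35 to 1.44 for Sfrp4. In the subtype with the highest level it ranged from -1.04 to 0.10 for Wif1, -0.43 to 0.96 for Dkk1, -0.35 to 1.17 for Sfrp1, -0.19 to 0.24 for Sfrp2, -0.75 to 0.76 for Sfrp4 and -0.54 to 2.15 for Frzb. The callus-wide difference ranged from -30.4 to 89.7 CPM for Sfrp1, -41.8 to 5.83 for Sfrp2, -12.2 to 5.56 for Sfrp4, -0.382 to 131 for Frzb, -0.0236 to 0.475 for Sost and -62.3 to 2.55 for Dkk3. Without replicate 3 of both groups, Frzb was -0.57 and Sfrp5 -0.34 in stromal-like cells, Frzb was -0.23 in chondrocyte-like and HTC-like cells and -1.08 in HTC-like cells, and the callus-wide differences of Frzb and Sfrp5 were -45.4 and -0.823 CPM. Sfrp1 turned negative in stromal-like cells (-1.73), in progenitor fibroblast-like cells (-0.35) and callus-wide (-30.4) without knockout-labelled library 1. The number of antagonists called in osteoblast-like 2 ranged from 0 to 1 with each library left out, the 1 being Sost without knockout-labelled library 3 (log2 difference -2.20, edgeR adjusted p = 0.0444), which left knockout-labelled library 2 as the lone sample of its group, assumed to vary like the controls. That fit called 97 of 7986 genes, 77 of them lower.

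Same-numbered libraries did not all deviate together. The correlation was positive for number 1 and not for numbers 2 and 3 (0.26, -0.07 and -0.18 in stromal-like cells and 0.29, -0.17 and -0.09 in chondrocyte-like and HTC-like cells), and no subtype with 3 pairs had all of them over 0.1, so the numbers were not taken to pair the libraries. With a replicate block, Sfrp1 was -0.57 and Sfrp5 -0.26 in stromal-like cells, Sfrp1 was -0.13 in chondrocyte-like and HTC-like cells, Sfrp2 was 0.0155 in progenitor fibroblast-like cells, and 1 antagonist was called in tendon-like cells, Sfrp4 (log2 difference -3.78), where this fit called 0.908% of 10026 genes. The replicate block changed no other call of an antagonist. Without the filter on low counts, edgeR called 35 genes in chondrocyte-like and HTC-like cells where DESeq2 called 1, none an antagonist. Without that filter it also called 4 antagonists in tendon-like cells (Dkk2, Sfrp1, Sfrp4 and Sfrp5) and 1 each in chondrocyte-like 1 (Dkk2), inflammatory fibroblast-like cells (Wif1), periosteal-like cells (Sfrp4), unnamed 1 (Sfrp5) and unnamed 2 (Sfrp1), and Dkk1 in osteoblast-like 2 was 0.0936. These unfiltered fits called 0.413% of all genes in tendon-like cells and 0.225% to 0.564% in the other 5 clusters. Clustered without integration, Sfrp1 was -0.80 and Sfrp4 -1.001 in chondrocyte-like and HTC-like cells. That fit held 5 libraries, since knockout-labelled library 2 then had under 10 cells in these clusters, so the set of libraries changed along with the clustering. The cause of these changes was not tested. At a resolution of 0.4 the highest Dkk1 level fell to 29.4 CPM, in a single osteoblast-like cluster.

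In all 4 clusterings tried, Sfrp1, Sfrp2 and Sfrp4 had their highest mean in progenitor fibroblast-like cells, Frzb in HTC-like cells and Sfrp5 in a chondrocyte-like cluster. The other sites changed: Wif1, Dkk1 and Sost were highest in osteocyte-like cells at a resolution of 1.2 and without integration, Wif1 was highest in osteoprogenitor-like cells at 0.4 (336 CPM), Dkk3 in inflammatory fibroblast-like cells at 0.4, in an unnamed cluster without integration, and Dkk2 within the stroma in periosteal-like cells without integration. Depth limits Sost, which rests on 2 to 51 UMIs per library in osteoblast-like 2.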
